A study of Mus musculus with 6 samples.

Results

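The genes described here are those of mitochondrial fatty acid oxidation and of its control by the PPAR and ERR nuclear receptors, measured in whole mouse hearts at embryonic day 16.5. They were taken from a list of 35 gene symbols in 4 role groups: uptake and activation, the carnitine shuttle, the beta oxidation enzymes, and regulators with genes that respond to them. A member was read by probe sets annotated to its symbol alone, which 33 of the 35 had (65 probe sets), out of 18193 genes on the arrays. Acsl1, which activates long-chain fatty acids by joining them to coenzyme A, had none among the probe sets used here. The probe set of Cpt1b, the muscle form of the enzyme that starts the carnitine shuttle, carried several symbols, so no value is given for it. Each gene is represented by its brightest probe set over all arrays. Of the 33 members 32 passed the filter on dim signal, a mean above 6.30 log2 units, and were tested among 11113 genes, while Ucp3 was below it.

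The compared hearts came from 3 FOG-2R3K5A embryos, called mutant from here on, and from 3 WT siblings, with 1 Affymetrix array per sample. The strain background of both genotypes was mixed (C57/B6, 129 S6), and all embryos came from crosses between double heterozygous parents. The protein FOG-2 (gene Zfpm2) partners GATA factors during heart development, and its N-terminal motif, which the mutation alters, is known to recruit the NuRD chromatin remodelling complex. The labels call the samples biological replicates but give neither the zygosity of the mutants nor whether a sample was 1 heart or a pool, so p-values measure the spread between these samples. In whole hearts, fewer cells of a type and less RNA per cell cannot be told apart.

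Long-chain fatty acids are freed from lipoproteins, taken up, bound to carriers and joined to coenzyme A. The acyl groups then cross the inner mitochondrial membrane as carnitine esters and are shortened in the matrix, in cycles of dehydrogenation, hydration, a second dehydrogenation and thiolysis that release acetyl-CoA. The fetal heart is known to live mainly on glucose and lactate and to turn to fatty acids after birth, a switch in which PPARalpha, the ERR receptors and their coactivator PGC-1alpha take part.

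Cardiomyocyte markers were bright on every array, as the tissue label states: the mean log2 intensity of 19 of them was 12.61 to 12.67 in mutants and 12.61 to 12.77 in WT. The array medians were 77.5 to 78.4 in mutants and 77.4 to 79.8 in 2 WT arrays, and 84.1 in WT replicate 3. WT replicate 1 was as close to the mutants as to its own group. It correlated with mutant replicate 2 at 0.990 over the tested genes, and with WT replicates 2 and 3 at 0.982 and 0.986. Lung RNA markers differed between arrays, with the airway secretoglobin Scgb3a2 at 9.03, 4.87 and 11.36 log2 units in mutant replicates 1, 2 and 3 and at 4.81 to 5.40 in WT. Markers of fat had a summed intensity of 172 to 215 in mutants and 172 to 288 in WT over 6 measured genes, and 1 of them, Cidea, was above the filter. Zfpm2 itself was higher in mutants (10.55 ± 0.03 against 10.11 ± 0.04 log2 units, SD, n = 3 each, limma adjusted p = 0.0134), which does not check the labels because the allele changes amino acids.

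No gene of fatty acid oxidation or its regulators passed the test between genotypes. Of the 32 tested members 0 had an adjusted p under 0.05 (limma with Benjamini-Hochberg adjustment over all genes), where 1.76% of all tested genes did, and the lowest was 0.210, for Esrra. The differences were small and mostly negative, from -0.43 for Esrra to 0.13 for Decr1 on the log2 scale. They were below 0 for 26 of 32 members (81.2%), against 52.8% of all tested genes, with a median of -0.10 against -0.01 over all genes. At an unadjusted p under 0.05 there were 6 members, Acaa2, Acadm, Hadhb, Ppargc1a, Esrra and Pdk4, all lower in mutants, where 6.33% of all genes were lower at that level. The values of the 3 mutants all lay below those of the 3 WT hearts for 5 members, Acaa2, Eci2, Ppargc1a, Esrra and Pdk4, where 9.76% of all genes did so, and all above for Esrrg, where 11.5% did. A permutation of 3 against 3 arrays cannot give an exact p below 0.1.

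WT replicate 1 lay closer to the mutants than WT replicates 2 and 3 did for most members. It was the lowest WT array for 27 of 32 members, against 33.5% of all tested genes, and the lowest of all 6 arrays for 14. The mean over the 32 members was 10.62, 10.55 and 10.57 log2 units in mutant replicates 1, 2 and 3, and 10.52, 10.77 and 10.73 in WT replicates 1, 2 and 3. The mutant mean was above WT replicate 1 for 22 members and below it for 10, with a median difference of 0.04. It was below the mean of WT replicates 2 and 3 for 27, with a median of -0.18. WT replicate 1 was set apart after its values were seen, and its low values fix the direction of that contrast. Members with a negative difference numbered 22 without WT replicate 2 and 23 without WT replicate 3. Without WT replicate 1 the median over all genes was -0.01 and 2 members were called, Esrra (-0.61, adjusted p = 0.0217) and Acadm (-0.28, adjusted p = 0.0325), both lower in mutants, where 1.57% of all genes were called lower. In that comparison 16 members were lower at an unadjusted p under 0.05, where 10.5% of all genes were. With 3 against 2 arrays, groups did not overlap for 20 members, 19 lower and 1 higher, where 19.8% of all genes were lower and 19.9% higher without overlap. Without WT replicate 1 the difference of 16 members lay over 1.5 times further from 0, that of 4 moved towards 0 by over 1.5 times, and that of Etfb turned to -0.022. Among the 16 were Slc27a1 at -0.37, Cd36 and Fabp3 at -0.13, Cpt1a at -0.15, Acadvl at -0.25, Acads at -0.21, Echs1 at -0.19 and Eci1 at -0.20. They also held Acot2 at -0.28, Ppara at -0.43, Ppargc1b at -0.21 and Esrrb at -0.27, none of which was called. Lpl, at 0.035, and Decr1, at 0.060, were among the 4. Control probe sets for 18S ribosomal RNA were brighter in the mutants and WT replicate 1 than in WT replicates 2 and 3, with mean intensities of 822, 631 and 1051 in mutants 1, 2 and 3 and of 969, 429 and 411 in WT 1, 2 and 3. The part of RNA or array quality in the member values was not tested. The ratio of 3' to 5' actin probe sets was 1.21 to 1.22 in mutants and 1.25, 1.18 and 1.22 in WT.

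**Figure D1:**
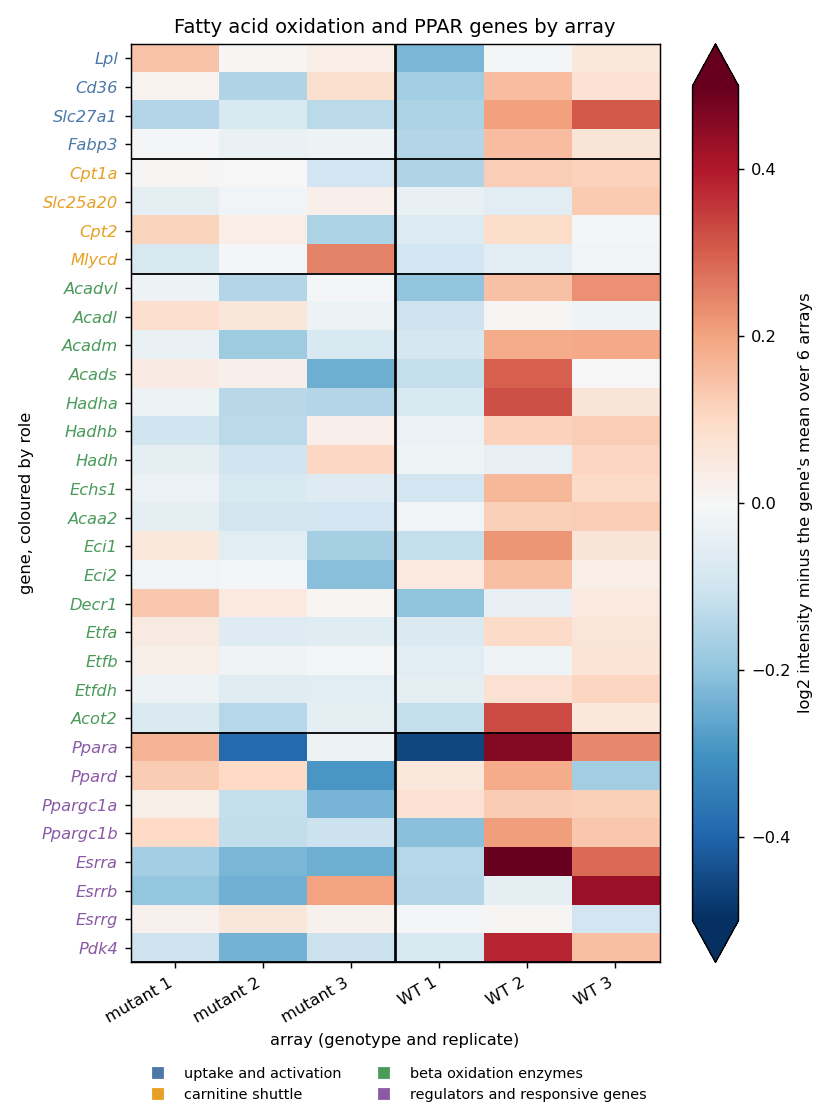
Log2 intensity of the 32 tested genes (rows, grouped and coloured by role) on each of the 6 arrays (columns, mutant left of WT), each as the deviation from the gene's mean over all arrays. WT replicates 2 and 3 are mostly red, while WT replicate 1 is mostly blue like mutant replicates 2 and 3. Mutant replicate 1 lies close to the gene means, at a median deviation of -0.01. WT replicate 1 is the lowest WT array for 27 of 32 genes.

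**Figure D2:**
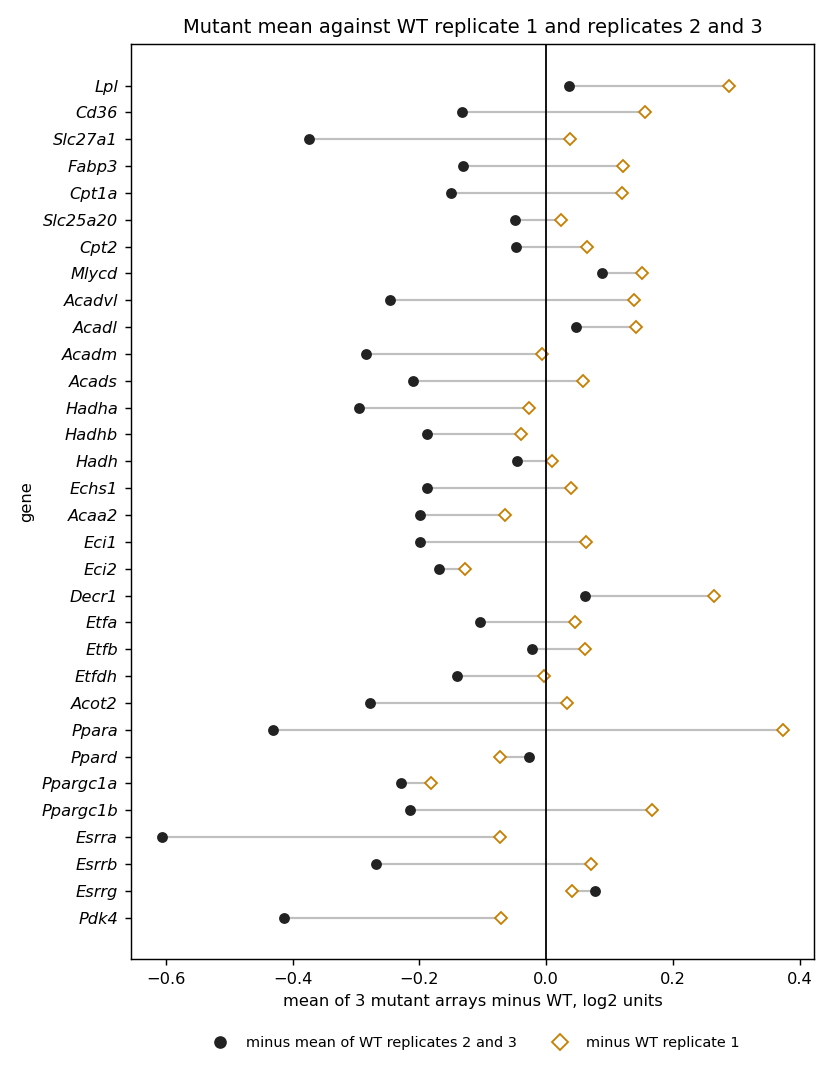
Mean of the 3 mutant arrays minus WT replicate 1 (open diamonds) and minus the mean of WT replicates 2 and 3 (filled circles) for each tested gene, in log2 units. The circles lie below 0 for 27 genes and the diamonds above 0 for 22.

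Among the genes of uptake, 3 of 4 tested had negative differences, with a median of -0.04. Lpl encodes lipoprotein lipase, which frees fatty acids from triglyceride at the vessel wall. It had 12.74, 12.60 and 12.63 log2 units in mutants and 12.37, 12.59 and 12.65 in WT. Only WT replicate 1 lay apart, below all other arrays, and the difference was 0.12 (SE 0.07, adjusted p = 0.480), with a second probe set at 0.16.

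Cd36, a membrane protein that takes up fatty acids in heart and vessel walls, read 11.91, 11.74 and 11.97 in mutants and 11.72, 12.05 and 11.97 in WT. The genotypes overlapped fully, and the difference was -0.04 (SE 0.09, 95% confidence interval -0.24 to 0.17). Both other Cd36 probe sets had negative differences (-0.07 and -0.19), and in both WT replicate 1 was again the lowest WT array. Slc27a1, the fatty acid transport protein FATP1, had 7.46, 7.53 and 7.47 in mutants and 7.45, 7.81 and 7.91 in WT. WT replicate 1 read like the mutants and the other WT arrays were higher, which gave -0.24 (SE 0.13, adjusted p = 0.449). Fabp3, the heart form of the fatty acid binding protein, had 13.01, 12.99 and 12.99 in mutants and 12.88, 13.17 and 13.08 in WT, so the mutants varied little and lay inside the WT range, at a difference of -0.05. Its dimmer probe set had -0.18, with all mutants below all WT arrays.

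The carnitine shuttle showed the smallest differences of the 4 role groups, with a median of -0.02 and 3 of 4 tested members negative. Cpt1a encodes the outer membrane carnitine palmitoyltransferase known as the liver form, which is also present in fetal heart. It had 9.75, 9.74 and 9.64 in mutants and 9.59, 9.86 and 9.85 in WT. Mutants lay between WT replicate 1 and the other WT arrays, at a difference of -0.06 (SE 0.09, adjusted p = 0.796), and both other probe sets had the same sign (-0.08 and -0.06). Slc25a20, the carnitine-acylcarnitine carrier of the inner membrane, was at 10.38 ± 0.04 in mutants and 10.41 ± 0.10 in WT. Its other probe set had -0.11, with all mutants below all WT arrays. Cpt2, which returns the acyl group to coenzyme A in the matrix, was at 10.07 ± 0.14 in mutants and 10.08 ± 0.08 in WT. Its interval ran from -0.21 to 0.19, and its dimmer probe set had 0.18. Mlycd encodes malonyl-CoA decarboxylase, which removes the inhibitor of the CPT1 enzymes. It had 7.86, 7.94 and 8.19 in mutants and 7.85, 7.89 and 7.93 in WT, a difference of 0.11 (SE 0.11, adjusted p = 0.687) in which mutant replicate 3 stood highest.

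Of the 16 tested members of the beta oxidation group, 13 had negative differences, with a median of -0.11 and a range of -0.21 to 0.13. The acyl-CoA dehydrogenases make the first step, each for a range of chain lengths. Acadm, for medium chains, had 12.21, 12.07 and 12.17 in mutants and 12.16, 12.43 and 12.44 in WT. The mutants lay below WT replicates 2 and 3 and around WT replicate 1, with a difference of -0.19 (SE 0.08, 95% confidence interval -0.37 to -0.01, adjusted p = 0.297). The relatives for very long chains, Acadvl, and for short chains, Acads, both had -0.12, while Acadl, for long chains, had 0.08 (12.80 ± 0.06 in mutants against 12.72 ± 0.06 in WT).

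Hadha and Hadhb encode the alpha and beta subunits of the trifunctional protein, which carries out the later steps on long chains. They are neighbours transcribed from opposite strands. Hadha read 11.58, 11.47 and 11.46 in mutants and 11.53, 11.92 and 11.67 in WT, and Hadhb 12.67, 12.63 and 12.79 in mutants and 12.74, 12.88 and 12.89 in WT. In the main probe set of each, mutants overlapped only with WT replicate 1. The differences were -0.21 (SE 0.09, adjusted p = 0.353) for Hadha and -0.14 (SE 0.06, adjusted p = 0.309) for Hadhb. The other Hadhb probe sets had -0.07, with overlap, and -0.42, with all mutants below all WT arrays. These per-array values were chosen after they were seen.

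Acaa2 encodes the mitochondrial 3-ketoacyl-CoA thiolase, the last enzyme of the cycle. It had 12.00, 11.95 and 11.95 in mutants and 12.03, 12.16 and 12.17 in WT. All mutants were below all WT arrays, WT replicate 1 by the smallest margin, and the difference was -0.15 (SE 0.05, 1.11-fold lower, adjusted p = 0.214). Its other probe sets had -0.17, again without overlap, and -0.29, with overlap. Eci1 and Eci2 encode isomerases that move double bonds of unsaturated fatty acids into place. Eci2 had 10.57, 10.57 and 10.37 in mutants and 10.63, 10.73 and 10.61 in WT, so the groups did not overlap, at -0.16 (SE 0.08, adjusted p = 0.385). Eci1 had -0.11, with overlap.

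The other hydratase and dehydrogenase, Echs1 and Hadh, had -0.11 and -0.03. All 3 Hadh probe sets lay between -0.04 and -0.03. Etfa, Etfb and Etfdh, which pass electrons of the dehydrogenases to the respiratory chain, had -0.05, 0.01 and -0.10. Acot2, a matrix thioesterase that splits acyl-CoA, had -0.17. Decr1, a reductase for unsaturated fatty acids, was the member with the most positive difference, 0.13 (10.38 ± 0.06 in mutants against 10.25 ± 0.13 in WT, adjusted p = 0.496), but its second probe set had -0.12. Adjusted p ran from 0.214 to 0.969 over the 16 genes.

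**Figure D3:**
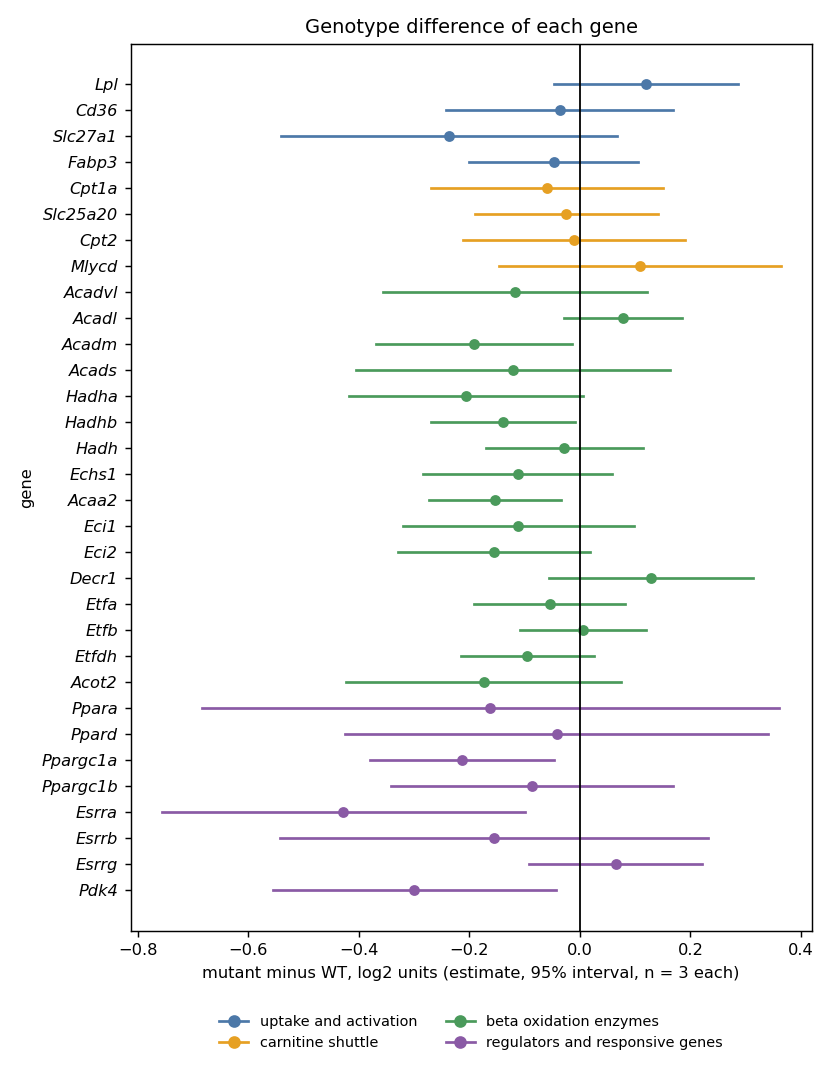
Mutant minus WT difference of each tested gene in log2 units, with limma's 95% confidence interval and colours for the role groups (n = 3 arrays per genotype). The estimates run from -0.43 for Esrra to 0.13 for Decr1, and the intervals of the 6 genes Acadm, Hadhb, Acaa2, Ppargc1a, Esrra and Pdk4 lie below 0 before adjustment for the number of genes.

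The regulators and responsive genes had the most negative median of the role groups, -0.16, with 7 of 8 tested members negative. They also varied most between WT arrays, with a median SD of 0.23 against 0.13 over all tested genes. Ppara encodes PPARalpha, a receptor for fatty acids that activates many genes of their oxidation. It read 7.97, 7.41 and 7.78 in mutants and 7.35, 8.26 and 8.04 in WT. WT replicate 1 was the lowest of all arrays and WT replicate 2 the highest, and the difference of -0.16 had an interval of -0.68 to 0.36 (adjusted p = 0.778). The other 2 Ppara probe sets had -0.39 and -0.45, also with overlap. Ppard, a related receptor expressed more widely, was dim at 6.33 ± 0.23 in mutants and 6.37 ± 0.18 in WT.

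Ppargc1a encodes PGC-1alpha, a coactivator of the PPAR and ERR receptors that drives mitochondrial genes, and was the member whose mutant mean lay furthest below WT replicate 1. Its main probe set had 11.03, 10.89 and 10.77 in mutants and 11.08, 11.13 and 11.12 in WT, with no overlap. The difference was -0.21 (SE 0.07, 1.16-fold lower, adjusted p = 0.220), and -0.18 against WT replicate 1 alone. Its other 4 probe sets above the filter had larger differences, of -0.46, -0.48, -0.42 and -0.25, and the first 3 of these also showed no overlap. The probe set at -0.48 had 9.99, 9.83 and 9.92 in mutants and 10.19, 10.47 and 10.53 in WT. In a fit of every probe set above the filter, chosen after the data were seen, its adjusted p was 0.0660, and 0 of the 57 member probe sets passed, where 0.99% of all 22518 did. Probe sets of 1 gene share the same RNA and are not replicates. Ppargc1b, a relative of Ppargc1a, had -0.09 with overlap.

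Esrra encodes ERRalpha, an orphan receptor that acts with PGC-1alpha on genes of oxidation and respiration, and had the largest difference of all members. It read 9.12, 9.06 and 9.04 in mutants and 9.15, 9.79 and 9.57 in WT. The mutants were tightly grouped and WT replicate 1 lay just above them, far from the other two WT arrays. The difference was -0.43 (SE 0.15, 95% confidence interval -0.76 to -0.10, 1.35-fold lower, adjusted p = 0.210). The second Esrra probe set had 8.55, 8.50 and 8.54 in mutants and 8.80, 9.12 and 9.16 in WT. There WT replicate 1 was clearly above the mutants as well, and the difference was -0.50 (adjusted p = 0.0877 over all probe sets).

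Esrrb and Esrrg encode the other members of the ERR family. Esrrb had -0.16 (8.39 ± 0.24 in mutants against 8.55 ± 0.31 in WT) with overlap. Esrrg, which is known for driving oxidative genes in the perinatal mouse heart, had 9.97, 10.01 and 9.97 in mutants and 9.95, 9.96 and 9.86 in WT. All mutants were above all WT arrays, by 0.06 in the mean (adjusted p = 0.694). A dimmer Esrrg probe set went the other way without overlap, at 6.65, 6.73 and 6.78 in mutants and 7.04, 7.27 and 7.55 in WT, so the probe sets gave no single direction for this gene.

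Pdk4 encodes a pyruvate dehydrogenase kinase that spares glucose when fatty acids are burned, and is a known target of PPARalpha and ERRalpha. It had 9.84, 9.71 and 9.84 in mutants and 9.87, 10.33 and 10.09 in WT. The groups did not overlap, but WT replicate 1 was only just above the mutants. The difference was -0.30 (SE 0.11, 1.23-fold lower, adjusted p = 0.261). Without WT replicate 1, which was set apart after its values were seen, it was -0.41 (limma adjusted p = 0.0591). Ucp3, a mitochondrial carrier that responds to fatty acids, was below the filter and untested, with 5.87, 5.86 and 5.95 in mutants and 5.87, 6.10 and 6.44 in WT.

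**Figure D4:**
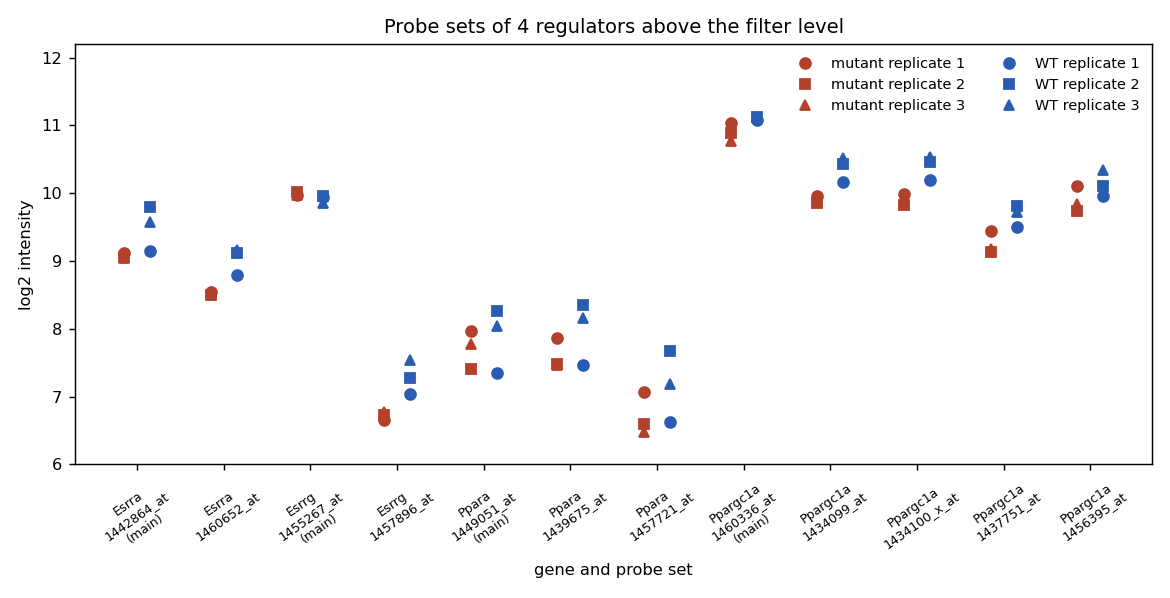
Log2 intensity of every probe set above the filter level for Esrra, Esrrg, Ppara and Ppargc1a, with mutant arrays left of WT arrays and a symbol per replicate. The mutants lie below all WT arrays in both Esrra probe sets and in 4 of 5 Ppargc1a probe sets, while the Esrrg probe sets go in opposite directions.

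Further probe sets that passed the filter existed for 16 of the tested members, 25 in all. Of these 22 had the sign of the main probe set, and 3, of Cpt2, Decr1 and Esrrg, had the opposite one. Of the 57 member probe sets above the filter 49 had negative differences.

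Several members with negative differences are known targets of PPAR and ERR receptors, which bind repeats of AGGTCA or the extended form TCAAGGTCA. The promoter windows of 250 bases before to 50 after a start site (RefSeq, GRCm38.p6) were searched for these letters on both strands. Windows were found for 30 members, 37 in all. The extended form was in 0 of the 37 and in 0.423% of 32851 windows of all genes. AGGTCA repeated in the same direction with 1 base between, with up to 1 mismatch, was also in 0 of the 37, and in 0.554% of all windows. A single AGGTCA, which the other motifs contain, was searched after these came out empty. It was in 6 of 37 windows (16.2%), of Acadm, Cd36, Ucp3, Echs1, Acadvl and Cpt1a, against 16.3% of all. The absence of these letters says nothing about sites elsewhere.

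Shown are the windows of the members with the largest differences, Esrra and Pdk4, that of Acadm, which was called without WT replicate 1, and the stretch shared by the windows of Hadha and Hadhb. Capitals mark AGGTCA on either strand, which is present only in that of Acadm, 249 bases before the start site. Esrra lies at chr19:6921759-6922058 (minus strand), Pdk4 at chr6:5496229-5496528 (minus strand) and Acadm at chr3:153944594-153944893 (minus strand). The start sites of Hadha and Hadhb lie 273 bases apart on opposite strands, and their windows share the 228 bases of chr5:30155003-30155230, given on the plus strand.
Esrra: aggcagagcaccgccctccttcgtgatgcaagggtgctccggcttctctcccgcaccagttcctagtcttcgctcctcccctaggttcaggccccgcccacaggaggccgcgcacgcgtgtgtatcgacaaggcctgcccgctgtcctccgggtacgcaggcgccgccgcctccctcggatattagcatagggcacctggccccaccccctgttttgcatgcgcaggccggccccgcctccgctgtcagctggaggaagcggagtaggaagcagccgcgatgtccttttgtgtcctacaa
Pdk4: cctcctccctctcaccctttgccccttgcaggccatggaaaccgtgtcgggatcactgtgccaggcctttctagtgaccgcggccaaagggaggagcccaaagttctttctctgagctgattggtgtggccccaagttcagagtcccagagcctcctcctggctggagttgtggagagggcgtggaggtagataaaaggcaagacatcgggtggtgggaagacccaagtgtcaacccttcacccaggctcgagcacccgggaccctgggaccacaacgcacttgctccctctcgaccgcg
Acadm: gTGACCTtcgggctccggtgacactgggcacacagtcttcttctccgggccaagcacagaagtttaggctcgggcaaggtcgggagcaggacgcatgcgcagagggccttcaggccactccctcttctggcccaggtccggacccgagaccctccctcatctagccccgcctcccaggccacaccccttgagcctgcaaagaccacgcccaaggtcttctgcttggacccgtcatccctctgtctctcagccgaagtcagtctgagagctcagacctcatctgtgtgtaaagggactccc
Hadha and Hadhb: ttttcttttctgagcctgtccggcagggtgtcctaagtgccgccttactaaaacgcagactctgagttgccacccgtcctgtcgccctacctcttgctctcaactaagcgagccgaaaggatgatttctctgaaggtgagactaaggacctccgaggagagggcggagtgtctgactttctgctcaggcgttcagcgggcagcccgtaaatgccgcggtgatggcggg

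Neighbouring lists of lipid genes had 0 genes called in each of 4 (limma, with 5, 2, 1 and 1 at an unadjusted p under 0.05, in the order given here). Of 20 other tested genes of uptake, activation and lipid droplets 15 had negative differences (median -0.10). WT replicate 1 was the lowest WT array for 13 of the 20. Acot1, the cytosolic relative of Acot2, had the largest, with 9.34, 9.41 and 9.46 log2 units in mutants and 9.58, 10.08 and 10.10 in WT. The groups did not overlap, and the difference was -0.52 (SE 0.13, 1.43-fold lower, adjusted p = 0.104). It was called without WT replicate 1 (-0.69, limma adjusted p = 0.00785), where 1.57% of all genes were called lower. That array was set apart after its values were seen, and it was the lowest WT array for Acot1. Fabp5, another fatty acid binding protein, had 0.12, higher in all mutants. Among 13 genes around malonyl-CoA and pyruvate 8 were negative (median -0.05). They include Prkaa2, a catalytic subunit of AMP-activated kinase, at -0.20 without overlap, and Fasn, fatty acid synthase, at 0.20 without overlap. Of 17 genes of other acyl-CoA enzymes, peroxisomes and ketone bodies 11 were negative (median -0.04), with Acad11 at 0.22 and Acadsb at -0.26. Of 19 tested partners of the PPARs and factors of mitochondrial biogenesis 17 were negative, with a median of -0.07. Rxra, the heterodimer partner of the PPARs, had -0.34 (adjusted p = 0.349) and Sirt3, a mitochondrial deacetylase, -0.24.

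General markers of mitochondria were split evenly in sign. Of 18 tested genes such as matrix enzymes, channels and import factors, 9 were negative and 9 positive, with a median of 0.01. Their mean was 12.17, 12.14 and 12.09 log2 units in mutants and 12.11, 12.19 and 12.16 in WT, where WT replicate 1 was again the lowest WT array. The mutant mean lay below that of WT replicates 2 and 3 for 11 of the 18. In all 0 were called by limma (0 at an unadjusted p under 0.05), with Hspa9 at -0.12 and Phb2 at -0.16. Of the 19 cardiomyocyte markers 9 were negative, with a median of 0.00. WT replicate 1 was the lowest WT array for 11 of them, against 33.5% of all tested genes. Their mean was 12.667, 12.619 and 12.610 log2 units in mutant replicates 1, 2 and 3. It was 12.609, 12.767 and 12.695 in WT replicates 1, 2 and 3, the order seen for the members. Tbx20, a cardiac T-box factor, fell by 0.38 (adjusted p = 0.0461). At an unadjusted p under 0.05 there were 3 lower and 2 higher. Besides Tbx20 these were Ckmt2, the mitochondrial creatine kinase, at -0.87 (adjusted p = 0.145) and Mb, myoglobin, at -0.30 (adjusted p = 0.0580), and Myl7 at 0.14 and Myh6 at 0.11, chosen after their values were seen. None of these 4 passed the test, and none of their groups overlapped. Of 10 endothelial markers 0 were called by limma (1 at an unadjusted p under 0.05), with a median of 0.04. Of these 4 were negative and 6 positive, from -0.12 for Tie1 to 0.23 for Emcn, and Tek had 0.16. The difference between the fatty acid list and these lists was not tested.

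**Figure D5:**
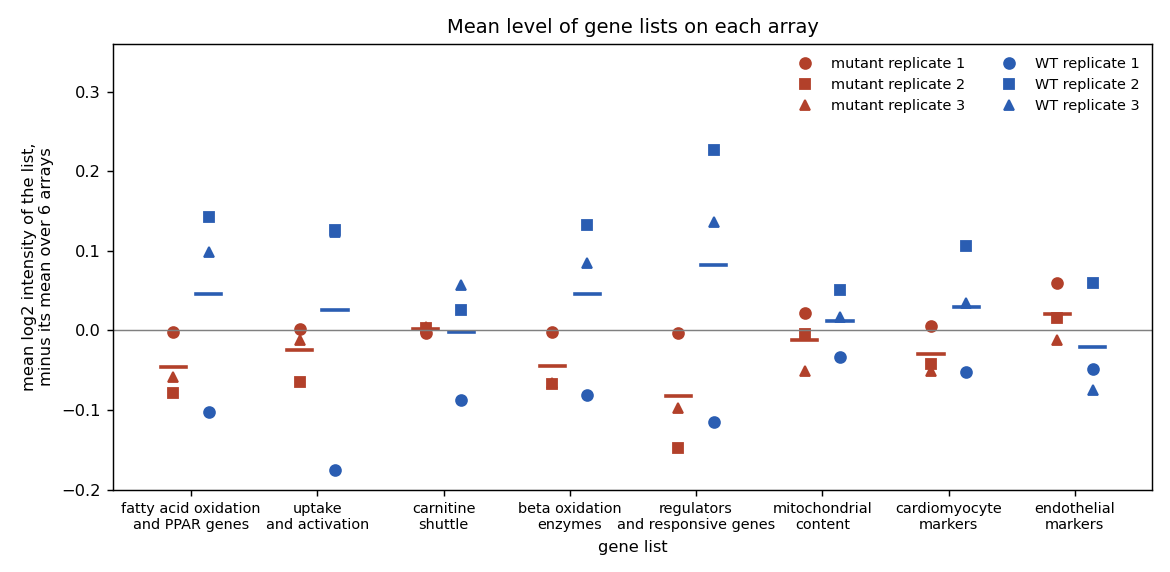
Mean log2 intensity of the 32 members, of their role groups and of 3 marker lists on each array, as deviations from the list's mean over 6 arrays, with bars for genotype means. WT replicate 1 lies below all mutants for the whole list (10.52 against 10.55 to 10.62) and WT replicates 2 and 3 above them. The cardiomyocyte markers have the same order, with WT replicate 1 lowest and WT replicates 2 and 3 above the mutants. The lists of mitochondrial and cardiomyocyte markers spread less.

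Other cell types were read on the same arrays. Erythroid markers had summed intensities of 2287 to 4527 in mutants and of 8868, 2737 and 2209 in WT replicates 1, 2 and 3 over 7 measured genes. The largest sum was thus in WT replicate 1, the array with the lowest member values. There the embryonic globins Hbb-y and Hba-x, at 12.59 and 10.50 log2 units, were higher than on any other array. Alas2, at 9.85, lay within the range of the other arrays, and Slc4a1, at 8.28, was close to mutant replicate 3 (8.26). None of 4 tested erythroid genes was called by limma (0 at an unadjusted p under 0.05), with 2 positive, Alas2 at 0.27 and Slc4a1 at 0.30, and 2 negative, the embryonic globins Hbb-y at -0.30 and Hba-x at -0.54. Of 15 fibroblast and epicardial markers 5 were called higher by limma, Krt18, Krt8, Krt19, Msln and Upk3b, by 0.50 to 1.54. Of all tested genes 1.76% were called in either direction. Over the 15 markers 9 differences were positive and 6 negative, down to -0.11 for Tbx18, with a median of 0.14. The summed intensity of the 15 was 38986 to 41955 in mutants and 35410 to 38220 in WT. Of 6 tested skeletal muscle markers 5 were negative, with a median of -0.24. By limma 2 were called lower, Tnni2 by 1.04 (adjusted p = 0.0217) and Casq1 by 0.41 (adjusted p = 0.0467). At an unadjusted p under 0.05, 3 were lower, these 2 and Mylpf (-0.29), where 6.33% of all genes were. Summed intensities over the 12 measured were 11007 to 11833 in mutants and 11169 to 13730 in WT. Among lung markers 3 were tested and 0 called by limma (1 at an unadjusted p under 0.05). The differences were 3.41 for Scgb3a2, 0.98 for Sftpc and -0.14 for Sftpb. Sftpc was 6.17, 5.80 and 9.43 log2 units in mutant replicates 1, 2 and 3 and 5.86 to 6.53 in WT. The sums over 7 genes were 711, 228 and 3496 in mutants and 219 to 331 in WT. The calls of Tbx20, Upk3b, Msln, Tnni2 and Casq1 were each lost under at least 1 alternative. The part of these cells in the member values was not tested.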

How the data were processed

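The deposited table gives linear probe set intensity values, 1 column per sample, for biotin-labelled cRNA made from 3 µg of total RNA, per the labels' protocols. The sources used here do not give the software, its version or the normalization. The deposited intensity values were used as given, with array medians of 77.4 to 84.1, and no detection call was used. The table holds 45101 probe sets, of which 64 are controls. The platform annotation gave 1 symbol for 34945.

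Intensities (floor 1) were log2-transformed, and a gene was left out where its mean did not exceed 6.30, the median over the means of the probe sets that are no controls. The test was limma (version 3.58.1, under R 4.3.3), two-sided, with lmFit and eBayes and an intensity trend, over 11113 genes, with Benjamini-Hochberg adjustment and calls at an adjusted p under 0.05. Values are mutant minus WT, with limma's SE or the SD of 3 arrays. The number of arrays limits the precision.

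Members, lists and motifs were chosen with earlier results of these data known. Array values are given for members without overlap, the 2 smallest p per role group and preset genes, and of each other list called genes or the 2 smallest p. Alternatives covered normalization, offset, filter, probe sets, variance model, array weights, the replicate block and each array left out. Figures were drawn with matplotlib.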

Additional observations from a re-analysis of the deposited data

How the results depend on the processing

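The count of 0 called members held in 14 of 15 alternatives listed in the processing summary and became 2 without WT replicate 1 (range 0 to 2 with each array left out). Members with a negative difference numbered 22 to 27 over these alternatives. The median over members was -0.06 with median centring, -0.08 with array quality weights and -0.18 to -0.04 with each array left out, the smallest without WT replicate 2. The median over all tested genes moved upward too, to 0.03 with median centring and to -0.003 with array quality weights. Members without overlap numbered 6 to 20 of 32 with each array left out. The 6 (18.8%) came without mutant replicate 2, against 28.3% of all genes, and without WT replicate 2, against 29.6%. The share of members without overlap was 62.5% without WT replicate 1, against 39.7% of all genes. It was 31.2% (10 members) without mutant replicate 3, against 34.6% of all genes. Genes called in all were 81 with no filter on dim genes, 119 with no intensity trend, 429 with array quality weights, and 37 (without mutant replicate 1) to 451 (without WT replicate 1) with an array left out. Causes were not tested. The deviations of same-numbered arrays from their group means correlated at r = -0.06, 0.13 and 0.41. These 3 values do not settle whether the numbers pair the samples. The replicate block called 234 genes and 0 members. Signs turned for 11 members and for the markers Slc4a1 and Sftpc. With median centring Cd36 had 0.0055, Slc25a20 0.017, Cpt2 0.031 and Hadh 0.014, and with quantile normalization Cpt2 had 0.011, Etfb -0.011 and Ppard 0.0045. With array quality weights Cpt2 had 0.053, Etfb -0.0056 and Ppard 0.10, and with the mean over probe sets Cpt2 had 0.083 and Esrrg -0.25. Another probe set gave 0.18 for Cpt2, -0.12 for Decr1 and -0.57 for Esrrg. With each array left out, Cd36 ranged from -0.13 to 0.031, Fabp3 from -0.13 to 0.017, Slc25a20 from -0.059 to 0.034, Cpt2 from -0.068 to 0.066, Hadh from -0.086 to 0.019 and Etfb from -0.022 to 0.042. Ppara ranged from -0.43 to 0.026, Ppard from -0.14 to 0.092, Esrrb from -0.29 to 0.022, Slc4a1 from -0.023 to 0.54 and Sftpc from -0.17 to 1.65. The number of arrays and, for Ppard and Ucp3, signal near the filter limit what can be detected.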
